A study of Homo sapiens with 12 samples.

Results

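The genes described here make, store, take back and break down catecholamines, together with the chromogranins that are packed beside them. They are TH, DDC, DBH, PNMT, SLC18A1, SLC18A2, SLC6A2, MAOA, CHGA and CHGB. They were picked by gene name from the table of counts, which gave 10 of its 43769 genes. All 10 were among the 15828 genes kept for testing after a filter on low counts. SLC18A1 passed that filter with counts of 27 in C1, 88 in C3, 15 in D2 and 42 in I3, and had 6 counts or fewer in each of the other libraries.

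RNA was sequenced from SK-N-DZ, a MYCN amplified neuroblastoma (NB) cell line that is wild type for ARID1A. The cells carried a lentiviral hairpin against ARID1A that doxycycline, a tetracycline antibiotic, is meant to switch on. There were 4 groups of 3 libraries: untreated control (C), doxycycline for 4 days (D), interferon gamma (IFNγ) for 24 h (I), and both agents (DI). The labels call C and I wild type and D and DI shARID1A. The study made clonal hairpin lines, and the labels do not say which clone a library came from or whether a replicate number marks a clone, passage or day. No library had doxycycline without the hairpin, so a response to the antibiotic and a response to the hairpin cannot be told apart. The labels do not say whether the replicates were separate cultures, and p-values then measure the spread between these libraries, which may be technical. A library is written here as its group and replicate number, for example D2.

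Tyrosine hydroxylase (TH) turns tyrosine into L-DOPA and is the rate-limiting step of the pathway. It needs the cofactor tetrahydrobiopterin. Aromatic L-amino acid decarboxylase (DDC) then makes dopamine, the vesicular monoamine transporters (SLC18A1 and SLC18A2) carry it into dense-core vesicles, and dopamine beta-hydroxylase (DBH) turns it into noradrenaline inside the vesicle with ascorbate as the electron donor. PNMT makes adrenaline, a step typical of the adrenal medulla. SLC6A2 is the noradrenaline transporter, which takes the transmitter back up and also carries the tracer MIBG used to image NB. MAOA, on the outer mitochondrial membrane, oxidizes the amines. NB arises from the sympathoadrenal lineage, and catecholamine breakdown products in urine are used in its diagnosis.

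Positions are from GENCODE 29 on GRCh38, and counts are per gene. The synthesis enzymes are TH (ENSG00000180176, chr11:2163929-2171877, minus strand), DDC (ENSG00000132437, chr7:50458436-50565457, minus strand), DBH (ENSG00000123454, chr9:133635348-133659344, plus strand) and PNMT (ENSG00000141744, chr17:39667981-39670475, plus strand). Of the vesicular transporters, SLC18A2 is given here (ENSG00000165646, chr10:117241073-117279430, plus strand) and SLC18A1 below. Reuptake and breakdown are by SLC6A2 (ENSG00000103546, chr16:55655604-55706192, plus strand) and MAOA (ENSG00000189221, chrX:43654907-43746824, plus strand). The chromogranins are CHGA (ENSG00000100604, chr14:92923080-92935293, plus strand) and CHGB (ENSG00000089199, chr20:5911430-5925361, plus strand).

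Promoter sequences from RefSeq (GRCh38.p14) were matched for 5 of the 10 genes, DDC, DBH, SLC18A2, CHGA and MAOA. The 250 bases upstream of the start of DBH, SLC18A2 and CHGA are shown because the products of these 3 genes share the vesicle, yet their RNA levels varied in different ways below. Capitals mark the letters of the cyclic AMP response element (CRE), TGACGTCA, or of its core TGACG, on either strand, and the core lies inside the whole element.
DBH, chr9:133636113-133636362, plus strand: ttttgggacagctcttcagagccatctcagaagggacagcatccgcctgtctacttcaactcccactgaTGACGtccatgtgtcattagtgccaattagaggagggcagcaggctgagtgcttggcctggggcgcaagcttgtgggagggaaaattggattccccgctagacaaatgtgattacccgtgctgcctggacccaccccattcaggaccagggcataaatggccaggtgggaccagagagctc
SLC18A2, chr10:117240864-117241113, plus strand: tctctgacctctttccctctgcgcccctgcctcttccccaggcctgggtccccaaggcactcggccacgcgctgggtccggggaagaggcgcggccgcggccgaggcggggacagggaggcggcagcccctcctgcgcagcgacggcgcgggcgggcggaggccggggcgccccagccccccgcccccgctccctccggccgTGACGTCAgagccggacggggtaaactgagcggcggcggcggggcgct
CHGA, chr14:92922900-92923149, plus strand: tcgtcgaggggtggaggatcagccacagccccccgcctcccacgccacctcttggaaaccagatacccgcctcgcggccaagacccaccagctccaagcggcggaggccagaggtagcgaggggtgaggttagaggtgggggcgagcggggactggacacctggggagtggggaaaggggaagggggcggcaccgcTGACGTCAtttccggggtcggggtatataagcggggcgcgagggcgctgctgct
The search also took in the 50 bases after the start. DBH had 1 core, at positions −181 to −177 from the start, and no whole element. SLC18A2 had a whole element at −48 to −41 and a second core after the start, and CHGA had a whole element at −54 to −47. The RefSeq starts of these 3 genes lie within the GENCODE genes, downstream of their first base. Over all 35116 RefSeq promoters of this length, 1.85% held the whole element and 24.6% held the core. The interferon gamma-activated site TTCNNNGAA and the core GAAANNGAAA of the interferon-stimulated response element, each searched on both strands, were in 7.66% and 3.57% of these promoters and in no entry of the 5 genes. Neither CRE motif was in the entries of DDC or MAOA. These matches describe the letters in the windows, and their part in the RNA levels below was not tested.

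Total counts ran from 16469832 to 21790869 per library, at which 3 counts equal 0.135 to 0.187 CPM, the count scaled to the size of the library. ARID1A, the target of the hairpin, was at 197, 186 and 165 CPM in C1 to C3 and at 197, 159 and 158 CPM in D1 to D3. It was at 192, 203 and 194 CPM in I1 to I3 and at 151, 133 and 148 CPM in DI1 to DI3. The ranges of C and D overlapped, so the libraries labelled D were not set apart by this RNA, whereas each DI library was below each I library. The fitted difference was −0.09 ± 0.11 (log2, SE, adjusted p = 0.788) in D vs C and −0.44 ± 0.11 (adjusted p = 0.115) in DI vs I, and the latter passed with the replicate numbers as a block (−0.45 ± 0.09, adjusted p = 0.0111). With the block within each doxycycline arm ARID1A was also lower in DI than in D (−0.25 ± 0.07, adjusted p = 0.0271). Transcripts of the mitochondrial genome took 3.35 to 4.99% of counts in C, 2.90 to 4.42% in I, 0.856 to 1.30% in D and 0.768 to 2.58% in DI. This share moved with doxycycline, and its part in the differences below was not tested. All 9 NB and sympathoadrenal markers were detected (summed level 4212 to 5283 CPM). Of the blood cell markers CD3E and HBB had no counts, and the summed level of the list was at most 1.25 CPM. The Schwann cell list summed to 3.00 to 17.4 CPM, with SOX10 at or below 3 counts in each library. The mesenchymal list summed to 512 to 777 CPM in C, 785 to 1253 CPM in D, 1876 to 3386 CPM in I and 1343 to 2779 CPM in DI. This sum was led by FN1, at 379 to 3330 CPM over the 12 libraries, and the next highest gene, VCAN, reached 160 CPM. The list's median log2 difference was 0.29 in D vs C, 0.09 in DI vs I, −0.23 in I vs C and −0.13 in DI vs D. The sum thus did not move with the list's median under IFNγ, and the part of this list in the differences below was not tested.

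The genes spanned a wide range of levels. CHGA, a granin and widely used neuroendocrine marker, was highest per length of exon, and the vesicular transporters and PNMT were lowest. On the scale of CPM per kb of exon, the mean over the 12 libraries was 262 for CHGA, 78.7 for MAOA, 72.0 for DBH, 41.0 for DDC, 22.1 for CHGB, 10.6 for SLC6A2, 5.72 for TH, 1.03 for SLC18A2, 1.01 for PNMT and 0.240 for SLC18A1. The lowest CHGA level, 186 CPM per kb, lay above the highest MAOA level, 128 CPM per kb. The lowest CHGB level of 15.1 CPM per kb lay just above the highest SLC6A2 level of 14.9 CPM per kb. All other neighbours in this order overlapped. TH ran from 0.214 to 23.0 CPM per kb and so crossed several of its neighbours. Of the exon length of SLC18A2, 52.0% is shared with PDZD8 on the opposite strand, and no source used here says that counting used the strand, so reads of both genes cannot be told apart there.

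**Figure D1:**
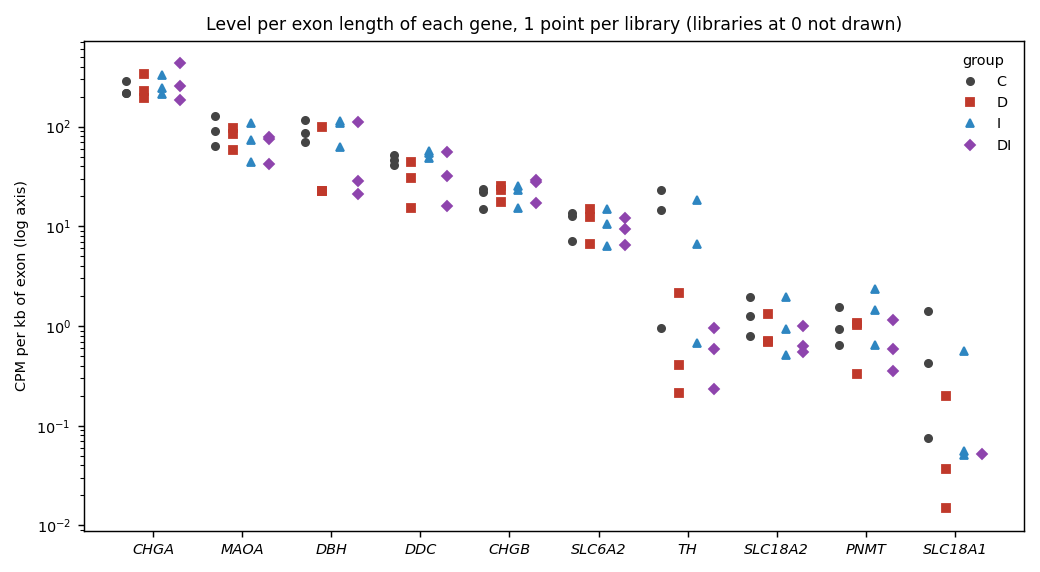
Level of each of the 10 genes in CPM per kb of exon on a log axis, ordered by the mean over all libraries, with 1 point per library and a colour per group. CHGA stood clear of the other genes, and TH spread from 0.214 to 23.0 CPM per kb.

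The doxycycline comparisons ask how these genes differed after doxycycline, given to switch on the hairpin, without IFNγ (D vs C) and with it (DI vs I). The 4 synthesis genes had lower mean levels with doxycycline in both comparisons, but the replicates disagreed so widely that no gene of the 10 passed the test in the model of the 4 groups. The difference depended on the replicate number. In numbers 1 and 3, TH, DDC, DBH and SLC18A1 were lower with doxycycline, whereas in number 2 none of these genes was called lower. CHGB, a granin like CHGA, was not called in any number. In these bulk samples, fewer cells that express a gene and less of its RNA per cell cannot be told apart.

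In D vs C, 0 of 10 genes were called by edgeR's quasi-likelihood test at an adjusted p under 0.05, where 1.23% of all genes tested were called. An unadjusted p under 0.05 was reached by 1 of the 10 and by 2248 of all 15828 genes. DESeq2 called 0 of 10 as well, but it gave SLC18A1 no adjusted p (unadjusted p = 0.0274 in DESeq2). The median log2 difference of the 10 genes in edgeR was −0.45, against −0.0012 over all genes. In DI vs I, 0 of 10 were called by edgeR and by DESeq2, against 0.67% of all genes by edgeR. An unadjusted p under 0.05 was reached by 2 of the 10 and by 1934 of all 15828 genes. The median log2 difference of the 10 genes was −0.64, against −0.0068 over all genes. For each of the 10 genes the groups overlapped in both doxycycline comparisons, which share no library, whereas 19.2% of all genes tested did not overlap without IFNγ (D vs C) and 16.6% with it.

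The replicate numbers are shared by the groups, and libraries of one number deviated together from their group means. With the number as a block, 1 of 10 genes was called in D vs C (13.9% of all genes) and 0 of 10 in DI vs I (10.5% of all genes). Adding the number to the 4 groups as a term of its own, 5 of 10 genes differed between numbers, which were DBH, SLC6A2, MAOA, CHGA and CHGB, where 44% of all genes did. The test of whether the doxycycline difference itself changed with the number, chosen after seeing the data, called 7 of 10 genes, where 15.8% of all genes were called. These were TH, DDC, DBH, SLC18A1, SLC18A2, SLC6A2 and MAOA. PNMT, CHGA and CHGB were not called (adjusted p = 0.242, 0.0670 and 0.903). In number 1 the doxycycline difference was called for 4 genes (24.8% of all genes), all lower (14.4% of all genes). In number 2 it was called for 3 genes (24.7%), of which 2 were lower (13.7%). In number 3 it was called for 7 genes (31.5%), of which 6 were lower (17.6%). Each of these differences rests on 2 libraries with doxycycline and 2 without it, 1 of each pair with IFNγ. In the fit by number, a library with IFNγ and its partner without it stand in for replicates. The SE and p rest on how far the IFNγ differences disagreed between numbers, and do not measure the spread between separate cultures. ARID1A itself fell by 0.42 in number 2 (SE 0.08, adjusted p = 0.00175), and numbers 1 and 3 gave −0.17 ± 0.08 and −0.22 ± 0.08 (adjusted p = 0.154 and 0.0523). The part of ARID1A in the split by number was not tested.

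**Figure D2:**
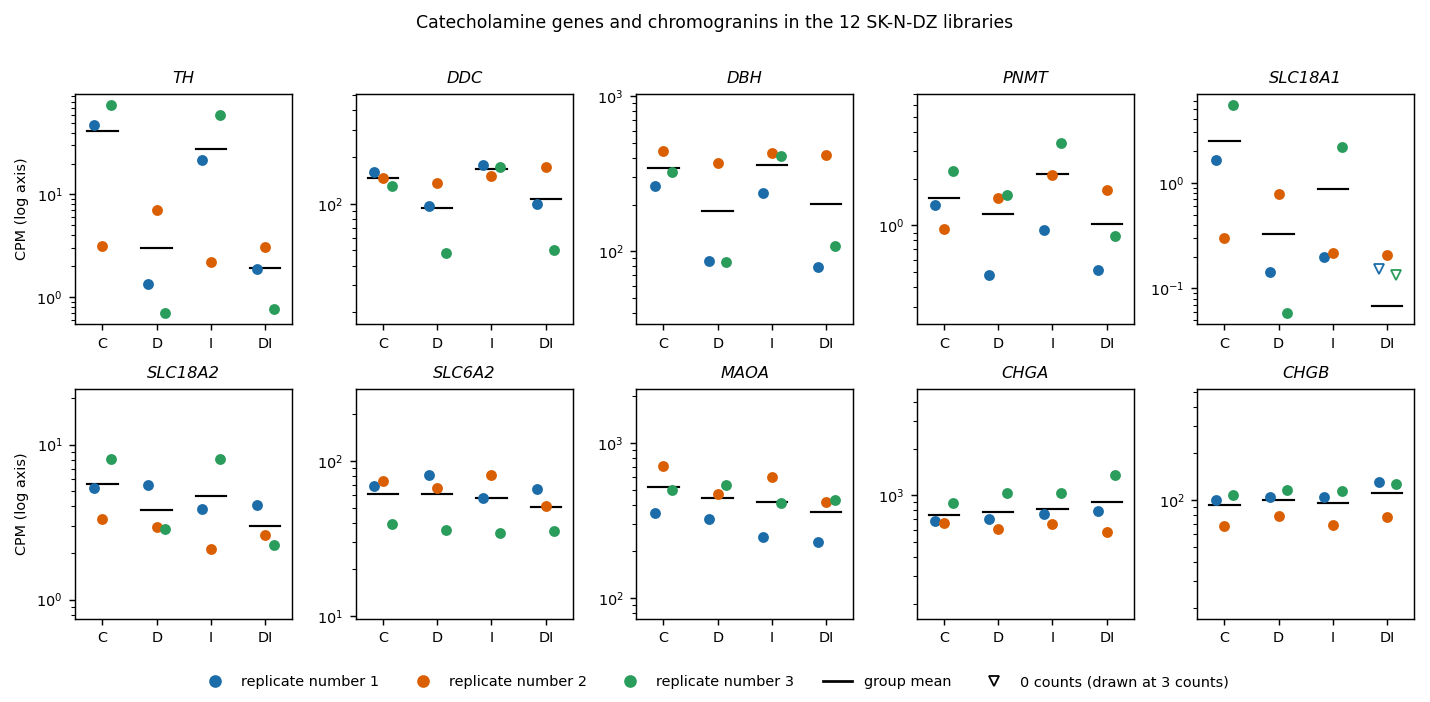
CPM of each of the 10 genes in the 12 libraries on a log axis, with a colour per replicate number and a bar at each group mean. TH, DBH and DDC of numbers 1 and 3 were low in D and DI, whereas the points of number 2 stayed near their level without doxycycline or, for TH, were low in every group.

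TH was read at 47.3, 3.13 and 74.7 CPM in C1 to C3 and at 1.33, 7.04 and 0.695 CPM in D1 to D3. It was at 21.5, 2.18 and 59.0 CPM in I1 to I3 and at 1.90, 3.08 and 0.766 CPM in DI1 to DI3. Numbers 1 and 3 were thus high without doxycycline and low with it, whereas number 2 was low in all 4 groups. The group means were 41.7 ± 36.1 CPM in C and 3.02 ± 3.49 CPM in D (SD, n = 3), which gave a log2 difference of −3.78 ± 1.32 with an adjusted p of 0.219 in edgeR. DI vs I gave −3.85 ± 1.34 (adjusted p = 0.268). Leaving out number 2 from each group, TH fell by 5.89 on the log2 scale in D vs C (adjusted p = 0.0402), when it was the gene called of 10 and 0.63% of all genes were called. In DI vs I the same gave −4.93 (adjusted p = 0.0521), with 0 of 10 genes and 0.239% of all genes called. For these comparisons, leaving out number 1 gave −3.32 and −4.00 (adjusted p = 0.874 and 0.913), and leaving out number 3 gave −2.59 (adjusted p = 0.601) and −2.23 (not called). Within number 1 TH fell by 4.34 (log2, SE 0.28, adjusted p = 2.48e-08) and within number 3 it fell by 6.48 (SE 0.31, adjusted p = 2.67e-10). Within number 2 it rose by 0.92 (SE 0.30, adjusted p = 0.0369), a call that was lost without C2 (adjusted p = 0.234), without D2 (0.946) or without I2 (0.0696).

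DDC was at 161, 146 and 130 CPM in C1 to C3 and at 96.3, 137 and 48.0 CPM in D1 to D3. With IFNγ it was at 178, 151 and 171 CPM in I1 to I3 and at 99.9, 174 and 50.7 CPM in DI1 to DI3. Libraries D2 and DI2 sat among those without doxycycline, and D3 and DI3 were the lowest of all 12. In edgeR D vs C gave −0.64 ± 0.41 (log2, SE, adjusted p = 0.544) and DI vs I −0.63 ± 0.41 (adjusted p = 0.619). Within number 1 DDC fell by 0.79 (SE 0.09, adjusted p = 1.29e-05) and within number 3 it fell by 1.61 (SE 0.10, adjusted p = 3.95e-09), whereas number 2 gave 0.06 ± 0.09 (adjusted p = 0.695).

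DBH was at 265, 442 and 326 CPM in C1 to C3 and at 86.0, 371 and 85.6 CPM in D1 to D3. It was at 238, 430 and 413 CPM in I1 to I3 and at 79.1, 417 and 108 CPM in DI1 to DI3. The doxycycline libraries of numbers 1 and 3 were thus the 4 lowest, and D2 and DI2 were higher than C1, C3 and I1. Every D library was below the C library of its number and every DI library below the I library of its number. In edgeR D vs C gave −0.93 ± 0.68 (log2, SE, adjusted p = 0.601), and with the number as a block DBH fell by 1.26 (SE 0.36, adjusted p = 0.0433). In DI vs I these were −0.84 ± 0.68 (adjusted p = 0.710) and −1.21 ± 0.36 (adjusted p = 0.0593). Within number 1 DBH fell by 1.61 (SE 0.11, adjusted p = 5.60e-08) and within number 3 it fell by 1.93 (SE 0.11, adjusted p = 3.04e-09), and number 2 gave −0.15 ± 0.11 (adjusted p = 0.341).

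PNMT was near the lower end of detection, at 0.944 to 2.24 CPM in C, 0.477 to 1.56 CPM in D, 0.940 to 3.41 CPM in I and 0.513 to 1.69 CPM in DI. In edgeR D vs C gave −0.36 ± 0.63 (log2, SE, adjusted p = 0.872) and DI vs I −1.08 ± 0.63 (adjusted p = 0.553). Within number 3 it fell by 1.23 (SE 0.44, adjusted p = 0.0432), and this call was lost in 6 of the 12 fits that each left out 1 library, C3 (adjusted p = 0.124), D1 (0.0542), D3 (0.0550), I3 (0.256), DI1 (0.0554) and DI3 (0.427).

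**Figure D3:**
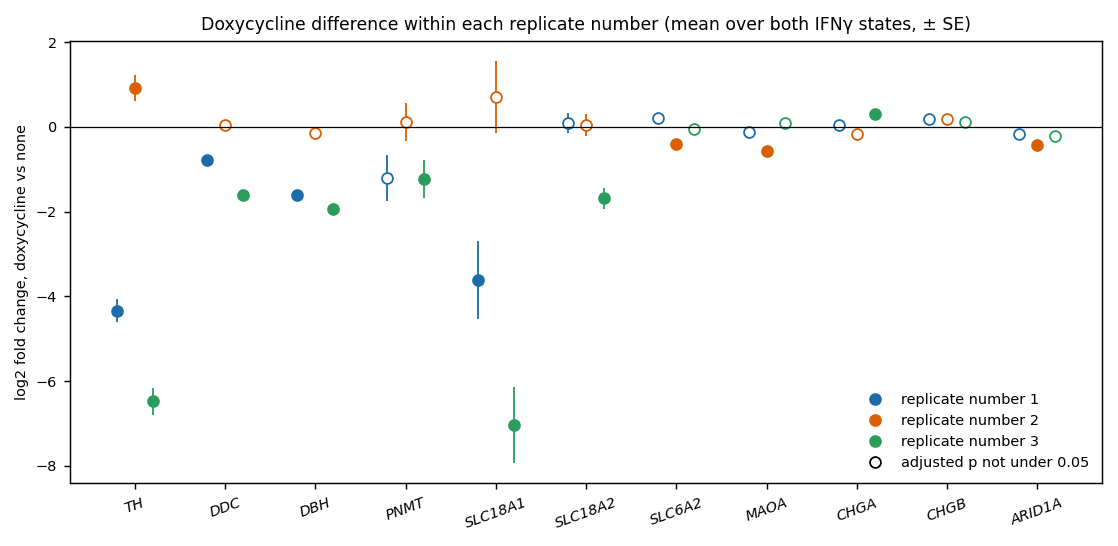
Log2 difference with doxycycline within each replicate number, as the mean over the states without and with IFNγ ± SE, for the 10 genes and ARID1A, with filled points for an adjusted p under 0.05. TH, DDC, DBH and SLC18A1 lay below 0 in numbers 1 and 3, whereas TH of number 2 was above 0 at 0.92. The plotted values of SLC18A1 depend on the prior count of the fit.

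Of the vesicular transporters, SLC18A1 (VMAT1) is found in adrenal chromaffin cells and SLC18A2 (VMAT2) in neurons, and neither is read here as a marker of a cell type. SLC18A1 (ENSG00000036565, chr8:20144855-20183206, minus strand) had 27, 6 and 88 counts in C1 to C3, 3, 15 and 1 in D1 to D3, 4, 4 and 42 in I1 to I3, and 0, 4 and 0 in DI1 to DI3. Its 3 highest libraries, C1, C3 and I3, were of numbers 1 and 3 without doxycycline. Unlike TH, which was at 21.5 CPM in I1, SLC18A1 was not high in I1, with 4 counts. The next highest library was D2, with 15 counts and doxycycline. The difference in number 1 thus rests mostly on the 27 counts of C1. In number 1 the libraries without doxycycline held 31 counts and those with it 3, a ratio of 10.8 per total count (exact 95% interval 3.38 to 55.4). In number 3 they held 130 counts against 1, a ratio of 137 (24.1 to 5438). Number 2 held 10 against 19, a ratio of 0.497 (0.207 to 1.12), and these intervals cover counting error only. The adjusted p in edgeR was 0.00833 in number 1, 1.85e-05 in number 3 and 0.578 in number 2. The call in number 1 was lost without C1 (adjusted p = 0.284), D1 (0.114) or DI1 (0.0586).

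SLC18A2 was at 5.22, 3.33 and 8.10 CPM in C1 to C3 and at 5.53, 2.95 and 2.84 CPM in D1 to D3. It was at 3.86, 2.13 and 8.07 CPM in I1 to I3 and at 4.11, 2.62 and 2.25 CPM in DI1 to DI3. The difference lay in number 3, whose C and I libraries were the highest of the 12. In edgeR D vs C gave −0.55 ± 0.50 (log2, SE, adjusted p = 0.700) and DI vs I −0.65 ± 0.51 (adjusted p = 0.698). Within number 3 SLC18A2 fell by 1.68 (SE 0.24, adjusted p = 6.56e-05), whereas number 1 gave 0.09 ± 0.24 and number 2 gave 0.04 ± 0.26 (adjusted p = 0.830 and 0.934). PDZD8, which shares exon sequence with it on the other strand, was at 50.6 to 77.6 CPM and rose by 0.30 in number 3 (SE 0.09, adjusted p = 0.0191).

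SLC6A2 was at 69.5, 74.7 and 39.1 CPM in C1 to C3 and at 80.7, 67.5 and 36.0 CPM in D1 to D3. It was at 57.5, 81.2 and 34.6 CPM in I1 to I3 and at 65.7, 51.2 and 35.5 CPM in DI1 to DI3. Number 3 was the lowest in each group, and this gene differed between numbers (adjusted p = 0.000453). D vs C gave 0.01 ± 0.38 (log2, SE, adjusted p = 0.998) and DI vs I −0.19 ± 0.38 (adjusted p = 0.920). Within number 2 SLC6A2 fell by 0.41 (SE 0.10, adjusted p = 0.00971), a call that was lost without I2 (adjusted p = 0.245) or DI2 (0.155). The change of its doxycycline difference with the number (adjusted p = 0.0249) was lost without D1 (0.0914), I1 (0.0992), I2 (0.160) or DI2 (0.129).

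MAOA was at 354, 708 and 495 CPM in C1 to C3 and at 321, 469 and 537 CPM in D1 to D3. D vs C gave −0.23 ± 0.36 (log2, SE, adjusted p = 0.851) and DI vs I −0.22 ± 0.36 (adjusted p = 0.892). Number 2, in which TH, DDC and DBH were not called lower, was the number in which MAOA fell, by 0.56 (SE 0.09, adjusted p = 0.000224). Numbers 1 and 3 gave −0.11 ± 0.09 and 0.10 ± 0.09 (adjusted p = 0.380 and 0.426).

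The chromogranins varied less. CHGA was at 679, 668 and 892 CPM in C1 to C3, 707, 607 and 1038 CPM in D1 to D3, 763, 652 and 1034 CPM in I1 to I3, and 788, 577 and 1348 CPM in DI1 to DI3. Number 3 was the highest and number 2 the lowest in each group. D vs C gave 0.07 ± 0.31 (log2, SE, adjusted p = 0.951) and DI vs I 0.15 ± 0.31 (adjusted p = 0.920). CHGA rose by 0.30 within number 3 (SE 0.10, adjusted p = 0.0222), a call that was lost without C3 (adjusted p = 0.252), I3 (0.0674) or DI3 (0.448). CHGB was at 68.4 to 108 CPM in C, 79.1 to 116 CPM in D, 69.0 to 114 CPM in I and 77.6 to 131 CPM in DI. Its value was higher in each D library than in the C library of its number, and in each DI library than in the I library of its number. None of its doxycycline tests passed: D vs C gave 0.12 ± 0.26 (adjusted p = 0.903), DI vs I 0.21 ± 0.26 (adjusted p = 0.833), and the numbers gave 0.19 ± 0.08, 0.19 ± 0.09 and 0.13 ± 0.08 (adjusted p = 0.114, 0.119 and 0.273).

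The IFNγ comparisons ask how the same genes differed after 24 h of the cytokine, without doxycycline (I vs C) and with it (DI vs D). Differences were small next to those between numbers. MAOA was lower in I and in DI than in the library of the same number and doxycycline state without IFNγ, in 6 of 6 pairs. TH and SLC18A1 were lower in 3 of 3 pairs of I vs C, but TH was higher in 2 of 3 pairs of DI vs D. The share of all genes with the same sign in every pair was not counted. The model of the 4 groups called none of the genes.

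In I vs C, 0 of 10 genes were called by edgeR (2.21% of all genes) and 0 by DESeq2. None had an unadjusted p under 0.05, which 1267 of all 15828 genes had. In DI vs D, 0 of 10 were called by edgeR (1.72% of all genes) and 0 by DESeq2, again with none at an unadjusted p under 0.05, against 987 of all genes. The groups overlapped for each of the 10 genes in both comparisons, where 15.1% and 9.55% of all genes did not overlap. With the number as a block within each doxycycline arm, which sets each library against its partner of the same number and doxycycline state, 3 of 10 genes were called in I vs C (14.6% of all genes) and 1 of 10 in DI vs D (11.2% of all genes), all lower. The replicate block common to both arms called none in I vs C (6.02% of all genes) or in DI vs D (4.46%). An unadjusted p under 0.05 was reached by 1 of the 10 in each, against 2862 and 2283 of all genes.

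MAOA was at 354, 708 and 495 CPM in C1 to C3 and at 246, 601 and 408 CPM in I1 to I3. It was at 321, 469 and 537 CPM in D1 to D3 and at 231, 416 and 431 CPM in DI1 to DI3. Number 1 was the lowest in each group, and the IFNγ library was the lower of each pair. With the block within each arm MAOA fell by 0.35 in I vs C (log2, SE 0.07, adjusted p = 0.00267) and by 0.32 in DI vs D (SE 0.07, adjusted p = 0.00573). Without the block these were −0.31 ± 0.36 and −0.30 ± 0.36 (adjusted p = 1.00 for both). TH fell by 0.69 in I vs C with that block (SE 0.18, adjusted p = 0.0157), and DI vs D gave −0.51 ± 0.30 (adjusted p = 0.338). In DI vs D the log2 ratio of CPM for TH was 0.51 in number 1, −1.19 in number 2 and 0.14 in number 3. SLC18A1 was called lower in I vs C (adjusted p = 0.0344) and not in DI vs D (adjusted p = 0.131), on the few counts given above.

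The other genes were not called in either IFNγ comparison with the block within each arm. DDC gave 0.19 ± 0.07 in I vs C and 0.16 ± 0.08 in DI vs D (log2, SE, adjusted p = 0.0956 and 0.212), and it was higher with IFNγ in 6 of 6 pairs. DBH gave 0.05 ± 0.09 and 0.13 ± 0.09 (adjusted p = 0.784 and 0.443). PNMT gave 0.46 ± 0.37 and −0.22 ± 0.40 (adjusted p = 0.469 and 0.816). SLC18A2 gave −0.32 ± 0.20 and −0.32 ± 0.21 (adjusted p = 0.320 and 0.399), with the IFNγ library below its partner in 6 of 6 pairs. SLC6A2 gave −0.10 ± 0.09 and −0.25 ± 0.09 (adjusted p = 0.498 and 0.0844). CHGA gave 0.12 ± 0.08 and 0.15 ± 0.08 (adjusted p = 0.383 and 0.256), and CHGB 0.05 ± 0.07 and 0.14 ± 0.07 (adjusted p = 0.684 and 0.234).

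**Figure D4:**
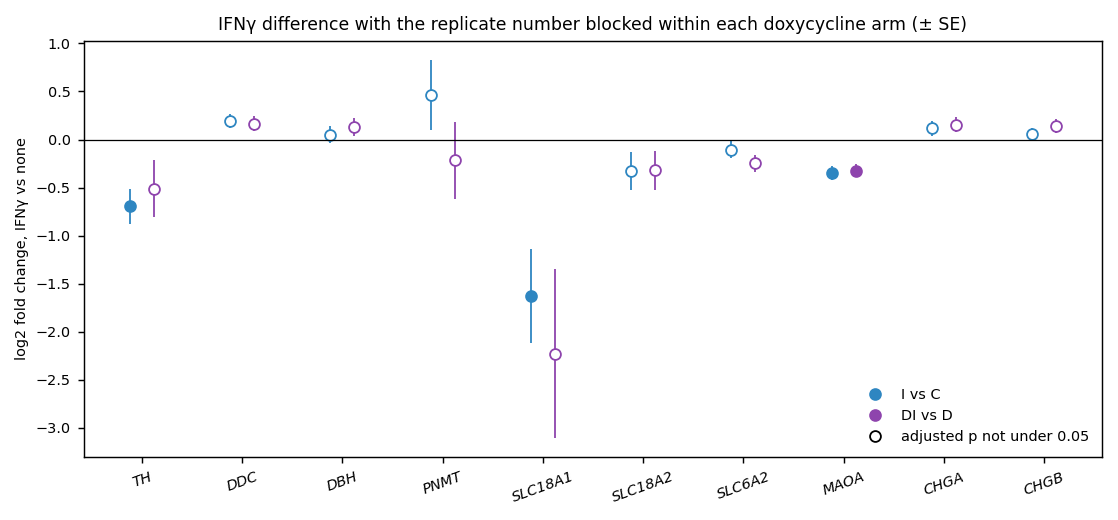
Log2 difference with IFNγ ± SE for the 10 genes in I vs C and DI vs D, with the replicate number as a block within each doxycycline arm and filled points for an adjusted p under 0.05. MAOA was below 0 and called in both comparisons, and TH and SLC18A1 were called in I vs C.

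The interaction, which asks whether the IFNγ difference changed with doxycycline, was called for 0 of 10 genes and for 0% of all genes by edgeR, where 99 of all genes and none of the 10 had an unadjusted p under 0.05. DESeq2 called 0 of 10 genes. The interaction terms of the 10 genes ran from −0.72 (PNMT) to 0.10 (CHGB) on the log2 scale.

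The genes that supply the cofactors of the pathway were read beside it. GCH1, the first and rate-limiting enzyme of tetrahydrobiopterin synthesis, was called in all 4 comparisons of the model of the 4 groups. It was at 18.6, 17.4 and 23.9 CPM in C1 to C3, 5.10, 6.42 and 9.73 CPM in D1 to D3, 49.4, 59.5 and 55.2 CPM in I1 to I3, and 17.2, 18.0 and 17.8 CPM in DI1 to DI3. Unlike TH, whose product uses this cofactor, GCH1 separated C from D and I from DI in every number. It fell by 1.50 in D vs C (log2, SE 0.22, adjusted p = 0.0118) and by 1.63 in DI vs I (SE 0.21, adjusted p = 0.00672), and it rose by 1.46 in I vs C (SE 0.21, adjusted p = 0.00255) and by 1.32 in DI vs D (SE 0.22, adjusted p = 0.00672). Its doxycycline differences within numbers 1, 2 and 3 were −1.64, −1.59 and −1.49, and the test of their change with the number did not pass (adjusted p = 0.900). The D vs C call was lost without C3 or without any 1 number, the DI vs I call without any 1 number, and the calls with IFNγ without number 1 or number 2, with adjusted p up to 0.326, while the log2 values kept their sign.

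Of the 9 genes of the list for tetrahydrobiopterin and ascorbate supply, GCH1 was the gene called in each comparison without a block, and the list's median log2 difference was −0.27 in D vs C, −0.08 in DI vs I, −0.02 in I vs C and 0.01 in DI vs D, against −0.0012, −0.0068, −0.0081 and −0.0120 over all genes. DESeq2 called GCH1 and CYB561. With the replicate block, 3 of 9 were called in each doxycycline comparison (13.9% of all genes without IFNγ and 10.5% with it), of which GCH1 and CYB561 were lower and SPR, the last enzyme of tetrahydrobiopterin synthesis, was higher. CYB561 hands electrons across the vesicle membrane to ascorbate. It was at 32.9, 25.6 and 41.9 CPM in C1 to C3, 14.4, 19.6 and 14.2 CPM in D1 to D3, 45.1, 42.3 and 67.0 CPM in I1 to I3, and 26.2, 30.5 and 23.5 CPM in DI1 to DI3. With doxycycline CYB561 was lower in each number, most in number 3. With the replicate block CYB561 fell by 1.04 in D vs C (SE 0.22, adjusted p = 0.0127) and by 0.92 in DI vs I (SE 0.21, adjusted p = 0.0238), and with the block within each arm it rose by 0.62 in I vs C (SE 0.08, adjusted p = 4.77e-05) and by 0.74 in DI vs D (SE 0.09, adjusted p = 1.72e-05). CYB561 and SPR were named after their values were seen.

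**Figure D5:**
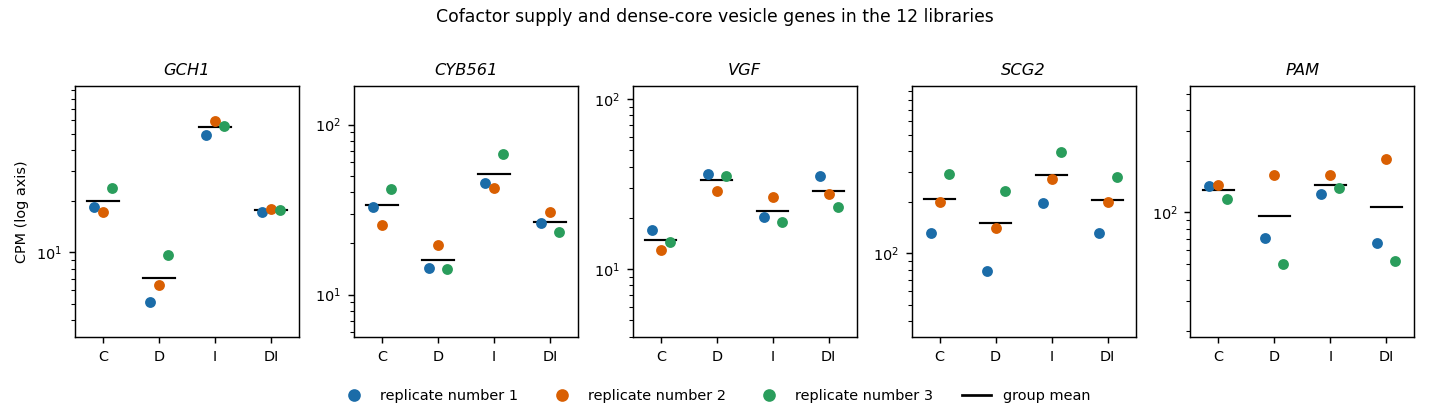
CPM of GCH1, CYB561, VGF, SCG2 and PAM in the 12 libraries on a log axis, with a colour per replicate number and a bar at each group mean. GCH1 was lower in D than in C and in DI than in I at every number, whereas PAM followed the numbers, with D2 and DI2 above the other doxycycline libraries.

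Of the 14 granins and other dense-core vesicle proteins, 1 was called by edgeR in D vs C and none in the other 3 comparisons without a block. DESeq2 called the same gene. An unadjusted p under 0.05 in any of these comparisons was reached by 2 of the 14. Single comparisons had 987 to 2248 of all 15828 genes at that level. The median log2 difference of the list was −0.23 in D vs C, −0.35 in DI vs I, 0.08 in I vs C and −0.0034 in DI vs D. The gene called was VGF, a granin-like neuropeptide precursor, at 17.0, 13.0 and 14.4 CPM in C1 to C3 and 36.4, 28.9 and 35.0 CPM in D1 to D3. VGF rose by 1.18 in D vs C (log2, SE 0.19, adjusted p = 0.0177), a call that was lost in 7 of 9 fits that left out a library or a number, with adjusted p up to 0.320 and log2 values of 1.08 to 1.27. In DI vs I it gave 0.39 ± 0.19 (adjusted p = 0.450). With the replicate block, 4 of 14 were called in D vs C (VGF higher, and PCSK1, PCSK1N and SCG2 lower), where 13.9% of all genes were. DI vs I had 3 of 14 (CADPS higher, and PTPRN2 and SCG2 lower), where 10.5% of all genes were called. Of these, SCG2 (secretogranin II) fell by 0.53 in the former (SE 0.09, adjusted p = 0.00613) and by 0.50 in the latter (SE 0.09, adjusted p = 0.00923). SCG2 rose with IFNγ by 0.48 in I vs C (SE 0.07, adjusted p = 0.000161) and by 0.51 in DI vs D (SE 0.07, adjusted p = 0.000121) with the block within each arm. PAM, which amidates neuropeptides in the vesicle with ascorbate as does DBH, fell by 1.00 in number 1 (SE 0.10, adjusted p = 4.07e-06) and by 1.35 in number 3 (SE 0.11, adjusted p = 9.11e-08), and gave 0.25 ± 0.10 in number 2 (adjusted p = 0.0822). Like PAM, PCSK1, PTPRN and PTPRN2 were called in numbers 1 and 3 and not in number 2. Numbers 1, 2 and 3 had 6, 3 and 8 of the 14 called (24.8%, 24.7% and 31.5% of all genes). A change with the number was called for 2 of the 14, PAM and PTPRN (15.8% of all genes). The genes of this list other than VGF were named after their values were seen.

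Of 14 transcription factors known to act on these genes, none was called by edgeR in the 4 comparisons without a block, 4 had an unadjusted p under 0.05, and DESeq2 called 1. This was PHOX2A, a sympathetic lineage factor that acts on the DBH promoter. It was at 837 to 895 CPM in C, 806 to 920 CPM in D, 1081 to 1218 CPM in I and 1034 to 1197 CPM in DI. With the block within each arm PHOX2A rose by 0.40 in I vs C (SE 0.07, adjusted p = 0.000871) and by 0.36 in DI vs D (SE 0.07, adjusted p = 0.00274). That fit does not give D vs C, for which a fit without the block within each arm gave −0.01 ± 0.09 (adjusted p = 0.989). The doxycycline difference was called for 5 of the 14 in number 1, 3 of them higher (24.8% of all genes). It was called for 5 in number 2, 1 of them higher (24.7%), and for 8 in number 3, 6 of them higher (31.5%). A change with the number was called for 6 of the 14, where 15.8% of all genes were. REST, a repressor of neuronal genes, was among these 6. It rose with doxycycline by 0.78 in number 1 (SE 0.14, adjusted p = 0.000564). In number 3 it rose by 1.18 (SE 0.15, adjusted p = 1.66e-05), and number 2 gave 0.15 ± 0.13 (adjusted p = 0.444). EGR1 and GATA3 too were called in numbers 1 and 3 and not in number 2. The part of REST in the differences of the 10 genes was not tested. With the replicate block, 4 of the 14 were called in D vs C (REST higher, and HAND2, INSM1 and TFAP2B lower), 1 in DI vs I (HAND2 lower), 2 in I vs C (PHOX2A higher and INSM1 lower) and 2 in DI vs D (PHOX2A and CREB1 higher). The transcription factors were named after their values were seen. No gene of the lists for catecholamine breakdown (5 of 7 tested), neuropeptides (6 of 10), the vesicular proton pump (17 of 17), other monoamine transporters and synthesis enzymes (2 of 9), catecholamine receptors (6 of 14) or cholinergic genes (4 of 4) was called in the 4 comparisons without a block, by edgeR or by DESeq2. In these 6 lists 1, 1, 5, 0, 0 and 1 genes had an unadjusted p under 0.05 in any of the 4 comparisons. Of all 15828 genes tested, 2248 had it in D vs C, 1934 in DI vs I, 1267 in I vs C and 987 in DI vs D. With the replicate block some were called, where 13.9% of all genes were called in D vs C, 10.5% in DI vs I, 6.02% in I vs C and 4.46% in DI vs D. Of the 4 cholinergic genes, SLC5A7, the choline transporter, fell by 2.13 in D vs C (SE 0.27, adjusted p = 0.00117), and 3 were lower in DI vs I, which were SLC5A7, SLC18A3 and CHAT (adjusted p = 0.00297, 0.0433 and 0.0469), while SLC18A3 was higher in I vs C (adjusted p = 0.0235). Of the breakdown list, AKR1A1 and AKR1B1 were lower in D vs C. Of the proton pump, 2 genes were lower in D vs C, 3 were lower in DI vs I, and 1 was higher in DI vs D. SLC29A4, a monoamine transporter, was lower in DI vs I. Of the receptors, ADRA2A was higher in both IFNγ comparisons, and of the neuropeptides, VIP was higher and SST lower in I vs C. These genes were named after their values were seen. MAOB was at or below 3 counts in each library, so MAOA was the monoamine oxidase that was detected. Among the NB and mesenchymal markers, STMN2, a neuronal microtubule regulator, fell by 1.37 in D vs C (SE 0.16, adjusted p = 0.00453) and by 1.21 in DI vs I (SE 0.16, adjusted p = 0.00865), calls lost without number 1 or number 3. FN1, fibronectin, rose by 2.45 in I vs C (SE 0.34, adjusted p = 0.00189), a call lost without number 3 (adjusted p = 0.120).

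For each gene with a mean of at least 1 CPM, the genes outside the 10 with the most similar log2 CPM over the 12 libraries were listed, as a description, since the points share group, number and depth. TH was followed by TRIM29 (r = 0.96), DUSP9 (r = 0.96) and TPPP3 (r = 0.94). DDC was followed by SEMA3F, METTL7A and SYTL3 (r = 0.97, 0.97 and 0.96), and DBH by SVOPL, ADAMTSL2 and PGM1 (r = 0.98, 0.97 and 0.97). PNMT was followed by DENND3, SLC39A13 and CADM3 (r = 0.93, 0.92 and 0.92) and SLC18A2 by DPY19L1, FGFR3 and PDCD2L (r = 0.89, 0.88 and 0.86). SLC6A2 was followed by PPM1F, CASC9 and EIF3L (r = 0.98, 0.96 and 0.96) and MAOA by PAG1, AMIGO1 and RTN3 (r = 0.94, 0.94 and 0.90). CHGA was followed by VWDE and NDUFB4 (r = 0.95 for both) and CHGB by ZNF788P, CRNKL1 and HMGCS1 (r = 0.97, 0.96 and 0.96).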

How the data were processed

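RNA-seq libraries (paired reads) of SK-N-DZ hairpin cells were grouped by the sample labels. The authors made the raw counts per gene before deposit, with the aligner, counting tool, build and strand setting not given in the sources used here. The authors also deposited 3 tables of their own comparisons (log2 fold changes and p-values, per the labels from DESeq2), which were not used, and neither were the 18 columns per library in them, whose names the labels do not explain.

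Counts were scaled by TMM, filtered with filterByExpr (minimum count 10) and fitted in 1 model of the 4 groups with the quasi-likelihood test of edgeR, two-sided (edgeR 4.0.16, limma 3.58.1, R 4.3.3). p-values were adjusted by Benjamini-Hochberg over 15828 genes, and genes with an adjusted p under 0.05 were called. All p-values in the text are edgeR's unless DESeq2 (version 1.42.0) is named. The code was tested on simulated data. Tables were joined with Python 3.11.15 and pandas 2.3.3. Depth and the 3-count floor stand in the report. Replicates differed by more than counting noise (chi-square per gene 19.8 to 85.0).

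Groups share replicate numbers. Deviations from the group means correlated at 0.588 to 0.839 between libraries of one number and doxycycline label (6 pairs) and 0.321 to 0.637 between libraries of one number and the other label (12 pairs), against −0.663 to 0.183 for other numbers (36 pairs), so the numbers pair the libraries. Blocked fits of the 10 genes are given where they change a call, and those of the related lists as counts. Tests by replicate number used a model with the number nested in the doxycycline arm and were chosen after seeing the data.

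The 10 genes, the related gene lists and the rules were chosen with earlier results of these data known. Named genes are the 10, ARID1A, the genes of each list called in the 4 comparisons with a mean of at least 1 CPM (at most 3 per direction by size of log2 fold change), and for each of the 10 with such a mean the 3 most correlated other genes, apart from an item that is not reported here. Alternatives changed the scaling, filter, tool, block and libraries.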

Additional observations from a re-analysis of the deposited data

Results flagged for a closer look

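The difference with doxycycline was not the same in the 3 replicate numbers for 7 of the 10 genes, by a test of the difference itself (edgeR, nested model, chosen after seeing the data). In this model the library pairs with and without IFNγ stand in for replicates, so its p-values do not measure the spread between separate cultures. The adjusted p was 1.58e-08 for TH, 6.76e-07 for DDC and 8.29e-07 for DBH, which were called lower in numbers 1 and 3 and not in number 2. It was 0.00129 for SLC18A1, which was called lower in the same numbers on few counts, those of number 1 mostly in C1. It was 0.00224 for SLC18A2, which was called lower in number 3. It was 0.0036 for MAOA and 0.0249 for SLC6A2, which were called lower in number 2. The first 6 of these calls held in each of the 12 fits that left out 1 library, with adjusted p up to 0.0342, and that of SLC6A2 was lost in 4 of them.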

How the results depend on the processing

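The direction of the called differences of TH, DDC, DBH and SLC18A1 in numbers 1 and 3 was kept under each alternative run. With the replicate block, 1 of 10 genes was called in D vs C (DBH), and with the replicate block within each doxycycline arm 3 were called in I vs C and 1 in DI vs D, where the model without a block called 0. The block changed no other call of the 10 genes in the 4 comparisons and the interaction. Leaving out a library or a number moved the genes called in D vs C over 0 to 1 (TH without number 2) and those called for number 2 over 1 to 3 (1 without I2). The doxycycline calls over all genes numbered 194 in D vs C without a block, 2200 with the replicate block, 649 by DESeq2, 0 without number 1, 100 without number 2 and 1 without number 3. In DI vs I they were 106, 1658, 460, 0, 38 and 2, and with IFNγ they were 350 and 273 in I vs C and DI vs D without a block, 953 and 706 with the replicate block, and 2318 and 1770 with the block within each arm. The cause was not tested. Some differences changed sign, none of them called before or after. SLC6A2 gave −0.000402 in D vs C with no filter on low counts and −0.0102 with the replicate block, and 0.0612 in number 3 with library size alone. The interaction gave 0.18 for TH and 0.0035 for SLC18A2 with the replicate block within each arm, and for DDC −0.0461 with the replicate block and −0.0305 with it within each arm. The genes whose sign changed when a library or a number was left out had the following lowest to highest log2 values. In D vs C they were PNMT −0.84 to 0.037, SLC6A2 −0.24 to 0.28, MAOA −0.46 to 0.052, CHGA −0.19 to 0.22, CHGB −0.071 to 0.26. In DI vs I they were SLC18A2 −1.07 to 0.18, SLC6A2 −0.43 to 0.14, MAOA −0.48 to 0.13, CHGA −0.26 to 0.39. In I vs C they were TH −1.83 to 0.13, DBH −0.10 to 0.29, SLC18A2 −0.90 to 0.13, SLC6A2 −0.41 to 0.17, CHGA −0.091 to 0.28, CHGB −0.12 to 0.25. In DI vs D they were TH −1.20 to 0.88, DDC −0.32 to 0.58, DBH −0.95 to 1.23, PNMT −0.77 to 0.18, SLC18A2 −0.63 to 0.047, CHGA −0.20 to 0.46. In the interaction they were TH −0.80 to 1.48, DDC −0.51 to 0.39, DBH −1.02 to 1.17, SLC18A1 −4.17 to 1.36, SLC18A2 −0.47 to 0.58, SLC6A2 −0.46 to 0.13, MAOA −0.26 to 0.37, CHGA −0.33 to 0.33, CHGB −0.091 to 0.30. In the doxycycline difference of number 1 they were SLC18A2 −0.0051 to 0.18, MAOA −0.25 to 0.025. In the doxycycline difference of number 2 they were DDC −0.088 to 0.19, PNMT −0.33 to 0.69, SLC18A1 −0.27 to 1.84, SLC18A2 −0.16 to 0.29, CHGA −0.33 to 0.0073. In the doxycycline difference of number 3 they were SLC6A2 −0.20 to 0.12. The fit to the 6 libraries compared gave no value for SLC18A1 in DI vs I and DI vs D. Depth limits SLC18A1 and PNMT, whose levels lay near the 3-count floor in many libraries or not far above it.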
